A study of Mus musculus with 16 samples.

Results

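The cytosolic lipid droplet and the turnover of the triglyceride inside it were followed through 10 genes in the left ventricle of mice that lack Tfeb in cardiomyocytes. They were chosen by symbol, as a set that covers the coat of the droplet (Plin2, Plin4, Plin5), lipolysis and its inhibitor (Pnpla2, Lipe, G0s2), the last step of triglyceride synthesis (Dgat1, Dgat2), a carboxylesterase (Ces1d) and lipoprotein lipase (Lpl). All 10 were found among the 57186 gene IDs of the count table, and all 10 passed the filter on low counts that left 15206 tested genes. The series title asks how TFEB, a transcription factor of lysosomal and autophagy genes, bears on cardiac hypertrophy and failure.

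Heart muscle burns mainly fatty acids, which arrive bound to albumin or are cut from circulating lipoproteins by lipoprotein lipase at the capillary wall. Fatty acids that are not oxidised at once are esterified to triglyceride and stored in droplets, whose surface carries perilipins. Lipases then release them again, and this local store is known to feed both mitochondrial oxidation and the nuclear receptors that set oxidative gene expression in cardiomyocytes. Droplets can also be degraded in the lysosome, the organelle that TFEB is best known for.

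The 4 groups were cKO-TFEB mice after transverse aortic constriction (cKO TAC), cKO-TFEB mice after sham surgery (cKO sham), WT mice after transverse aortic constriction (WT TAC) and WT mice after sham surgery (WT sham). Transverse aortic constriction narrows the aorta and puts the left ventricle under pressure. Each group had 4 biological replicates, all groups are labelled C57/BL6N, and 1 bulk RNA library was made from left ventricular tissue of each. The Cre line, any floxed allele in the WT mice, age, sex and the time after surgery are not given in the sources used here. Bulk tissue cannot tell fewer cells of a type from less RNA per cell, which holds for every difference below.

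The 16 libraries held 12946878 to 16347388 counts. Tfeb had 14.7, 13.8, 13.0 and 9.37 CPM in the cKO TAC libraries, against 40.0, 34.6, 20.6 and 21.1 CPM in the WT TAC libraries. It had 10.0, 9.12, 9.68 and 13.0 CPM in the cKO sham libraries, against 30.9, 37.4, 40.1 and 37.6 CPM in the WT sham libraries. Every cKO library was below every WT library of the same surgery, so no library went against its label (log2 fold change -1.19 after TAC and -1.80 after sham, edgeR adjusted p = 0.0138 and 0.000604). CPM here are counts per 1000000 of the library total after TMM scaling, fold changes were estimated by edgeR and stand with a standard error (SE), and adjusted p-values come from the quasi-likelihood F-test with Benjamini-Hochberg adjustment over all tested genes, with 0.05 as the threshold.

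Cardiomyocyte markers were abundant in every library: the summed CPM of 12 cardiomyocyte markers was 51149.5 to 69373 in cKO TAC, 73750.0 to 85658 in cKO sham, 65788 to 77168 in WT TAC and 75304 to 88082 in WT sham. Fat cells also use most of these genes, so 12 adipocyte markers were summed as well. Their sum was 4.13 to 6.25 CPM in cKO TAC, 5.48 to 9.06 CPM in cKO sham, 3.76 to 78.0 CPM in WT TAC and 7.27 to 30.1 CPM in WT sham. The top values belonged to WT TAC replicate 4 and WT sham replicate 3, which also had the highest sums of 5 atrial markers among WT libraries, 1331 and 3613 CPM. Of the adipocyte markers, Ucp1 was at 0 in all 16 libraries, and Adipoq, which defines fat cells, did not exceed 3.50 CPM in any. With these 2 libraries left out, an alternative chosen after seeing the data, the number of the 10 genes that passed stayed at 7 for cKO TAC against cKO sham, 3 for WT TAC against WT sham, 1 for cKO TAC against WT TAC and 0 for cKO sham against WT sham.

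The sequences before the start sites of 4 coat and lipase genes are shown because they hold, or in Pnpla2 lack, the letters of 2 kinds of binding site. These are CACGTG, the core of the E-box that TFEB and other basic helix-loop-helix factors bind, and AGGTCA, the core string of nuclear receptor sites, which include the fatty acid receptors of the heart. The windows come from RefSeq (GRCm38.p6). The table matched 6 of the 10 genes, with 1 window each for Plin2, Plin4, Pnpla2 and G0s2 and 2 each for Plin5 and Lipe. Shown are the 250 bases before the start and the first bases after it, 252 in all, 5′ to 3′ along the gene. Capitals mark CACGTG, or AGGTCA read on either strand (TGACCT where it lies on the opposite strand). 
Plin2 (chr4:86670058-86670309, minus strand): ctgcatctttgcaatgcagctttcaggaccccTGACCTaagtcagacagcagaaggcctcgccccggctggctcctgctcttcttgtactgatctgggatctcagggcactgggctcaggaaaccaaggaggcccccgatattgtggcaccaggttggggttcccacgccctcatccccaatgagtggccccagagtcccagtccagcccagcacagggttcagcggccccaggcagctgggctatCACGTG
Lipe (chr7:25395986-25396237, minus strand): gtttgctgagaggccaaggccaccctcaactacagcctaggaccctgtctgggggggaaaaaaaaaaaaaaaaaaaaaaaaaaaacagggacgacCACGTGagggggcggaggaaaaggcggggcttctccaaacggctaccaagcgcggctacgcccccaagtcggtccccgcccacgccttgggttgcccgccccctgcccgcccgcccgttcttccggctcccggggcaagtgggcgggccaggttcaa
Plin5 (chr17:56117547-56117798, minus strand): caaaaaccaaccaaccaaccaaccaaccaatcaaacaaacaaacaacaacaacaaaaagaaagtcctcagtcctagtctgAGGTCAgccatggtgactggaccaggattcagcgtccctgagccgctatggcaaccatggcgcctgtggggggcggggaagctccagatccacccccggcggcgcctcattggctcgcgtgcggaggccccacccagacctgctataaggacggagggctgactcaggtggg
Pnpla2 (chr7:141454938-141455189, plus strand): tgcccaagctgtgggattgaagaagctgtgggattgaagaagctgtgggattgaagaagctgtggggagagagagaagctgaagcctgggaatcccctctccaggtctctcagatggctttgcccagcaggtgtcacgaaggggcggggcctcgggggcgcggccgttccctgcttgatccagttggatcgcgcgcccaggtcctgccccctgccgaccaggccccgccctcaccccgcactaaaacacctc
CACGTG reads the same on both strands. It was found in Plin2, where it begins 4 bases before the start and runs across it (position -4), and in the upstream window of Lipe at position -155. Of 32851 RefSeq windows of 300 bases in the table, 7.15% held CACGTG, and the longer TCACGTGA, which none of the 8 windows held, was in 0.974%. AGGTCA was found in Plin2 on the opposite strand at position -218 and in Plin5 at position -170, with another at position 14 of the second Plin5 window. It is a common string that 16.3% of all windows held. The direct repeat of AGGTCA with 1 base between the copies, which 0.0396% of all windows held, was in none of the 8. The Pnpla2 window held none of these letters, and neither did the windows of Plin4 and G0s2 or the other Lipe window.

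After TAC, genes of the set fell in both genotypes. The set was chosen with earlier results of these data known. Its counts therefore describe the set, and the shares of all tested genes beside them do not test an excess. In cKO hearts 7 of the 10 genes passed the test as lower after TAC than after sham and none as higher, where 12.4% of all tested genes passed as lower and 14.2% as higher. The median log2 fold change of the 10 was -0.55, beside 0.00 over all tested genes. In WT hearts 3 of the 10 passed as lower and none as higher, where 6.14% of all tested genes passed as lower and 9.7% as higher. Here the median of the 10 was -0.36, beside -0.01 over all tested genes. Groups did not overlap, with every TAC library below every sham library, for 6 of the 10 genes in cKO hearts and 4 in WT hearts, where 13.8% and 8.44% of all tested genes did so. The genes that fell in both genotypes were Plin5, Pnpla2 and Lpl, and those that passed in cKO hearts and missed the threshold in WT hearts were Plin4, Lipe, Dgat2 and Ces1d. This difference in calls does not show a different response: when the responses of the genotypes were tested against each other in edgeR, none of the 10 passed, and 0% of all tested genes did (0 of 15206, with 715 at an unadjusted p under 0.05).

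**Figure D1:**
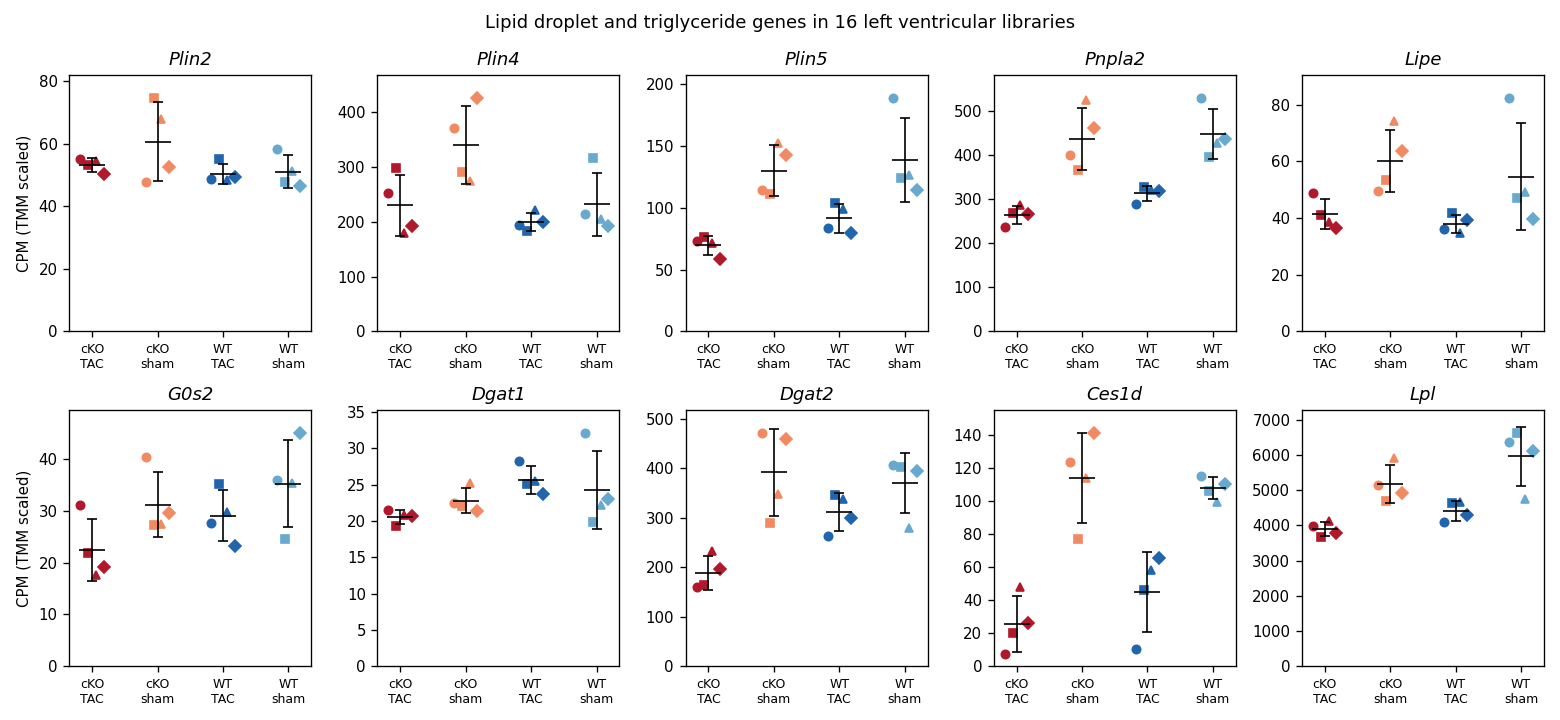
CPM (TMM scaled, vertical axis from 0) of the 10 genes in each library, by group from left to right: cKO TAC, cKO sham, WT TAC, WT sham. Symbols are the 4 replicates of a group, and the horizontal dash with bars is the mean ± SD; Pnpla2 lay at 236 to 286 CPM in cKO TAC, below every cKO sham library, and Dgat2 at 159 to 232 CPM in cKO TAC, below every library of the other groups.

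Some of the cell marker lists moved with surgery too, and others did not. After TAC, 8 of 12 cardiomyocyte markers passed as lower and 1, Myh7, as higher in cKO hearts, with a median log2 fold change of -0.54 for the 12. In WT hearts 2 of the 12 passed as lower and 1 as higher, with a median of -0.26. Of 8 fibroblast markers, 7 rose in cKO hearts and 6 in WT hearts, and their summed CPM was 3867 to 8106 in cKO TAC, 1091 to 2077 in cKO sham, 2562 to 4018 in WT TAC and 849 to 1394 in WT sham. Of 8 macrophage markers, 6 rose in cKO hearts and 5 in WT hearts. Of 8 endothelial markers, 3 rose in cKO hearts and 2 in WT hearts. Of 4 smooth muscle markers, 0 passed in cKO hearts and 1 rose in WT hearts. Of 4 tested atrial and 5 erythrocyte markers, 0 passed in either genotype. The share of counts from mitochondrially encoded genes was 16.1 to 20.4% in cKO TAC, 21.9 to 24.1% in cKO sham, 17.1 to 22.6% in WT TAC and 21.1 to 25.8% in WT sham. TMM factors ran the other way, at 1.03 to 1.14 in cKO TAC, 0.915 to 0.979 in cKO sham, 0.973 to 1.06 in WT TAC and 0.908 to 0.998 in WT sham. With the mitochondrially encoded genes removed, still 7 of the 10 genes passed as lower in cKO hearts and 3 in WT hearts. The part of the marker shift in the falls of the droplet genes was not tested.

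Of the droplet coat, Plin5 fell in both genotypes, Plin4 passed in cKO hearts alone and Plin2 passed in neither, and the 3 genes were not tested against each other. Plin5, the perilipin of oxidative tissues that ties the droplet to mitochondria and holds back lipolysis, had 72.9, 76.1, 71.2 and 58.3 CPM in cKO TAC, against 114, 111, 153 and 143 CPM in cKO sham. In WT mice it had 83.2, 104, 98.9 and 79.8 CPM after TAC, against 189, 124, 126 and 115 CPM after sham. No TAC library reached the level of a sham library of its genotype, and WT sham replicate 1 stood far above the rest of its group. The fall was 1.87-fold in cKO hearts (log2 fold change -0.90, SE 0.15, edgeR adjusted p = 0.000452) and 1.51-fold in WT hearts (log2 fold change -0.60, SE 0.15, edgeR adjusted p = 0.0126).

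Plin4, a perilipin of fat, muscle and heart that coats small droplets, had 253, 299, 179 and 192 CPM in cKO TAC, against 371, 290.3, 276 and 426 CPM in cKO sham. Replicate 2 of cKO TAC lay above the lower pair of cKO sham libraries, so the groups overlapped. WT hearts had 194, 183, 221 and 199.7 CPM after TAC, against 214, 317, 206 and 193 CPM after sham, and here too the groups overlapped. Its log2 fold change after TAC was -0.56 in cKO hearts (SE 0.18, edgeR adjusted p = 0.0290) and -0.22 in WT hearts (SE 0.18, edgeR adjusted p = 0.433). The call in cKO hearts was lost when cKO TAC replicate 3 or 4, or cKO sham replicate 1 or 4, was left out (edgeR adjusted p = 0.0783, 0.0860, 0.0764 and 0.103). Plin2, the perilipin found on droplets of nearly every cell type and stabilised by them, ranged over 50.2 to 55.1 CPM in cKO TAC, 47.7 to 74.6 CPM in cKO sham, 48.4 to 55.1 CPM in WT TAC and 46.6 to 58.4 CPM in WT sham. All of these ranges overlapped. Its log2 fold change after TAC was -0.19 in cKO hearts (95% interval -0.44 to 0.07) and -0.02 in WT hearts (95% interval -0.27 to 0.24), so that a fall in WT as large as that of Plin5 lay outside the interval, although scaling by library totals alone turned both signs.

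Of the lipolytic genes, Pnpla2 changed most evenly. It encodes adipose triglyceride lipase, which takes the first fatty acid off stored triglyceride. Pnpla2 had 236, 270.2, 286 and 267 CPM in cKO TAC, against 400.0, 366, 526 and 462 CPM in cKO sham, and 289, 327, 321 and 319 CPM in WT TAC, against 530.3, 397, 429 and 437 CPM in WT sham. All TAC libraries were below all sham libraries, across both genotypes. It fell 1.66-fold after TAC in cKO hearts (log2 fold change -0.73, SE 0.11, edgeR adjusted p = 0.000243) and 1.43-fold in WT hearts (log2 fold change -0.51, SE 0.11, edgeR adjusted p = 0.00566). Both calls held under all 17 alternatives run for each, as did both calls of Plin5.

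Lipe, hormone-sensitive lipase, which acts mainly on the diglyceride that Pnpla2 leaves, had 48.8, 41.2, 38.7 and 36.6 CPM in cKO TAC, against 49.6, 53.4, 74.1 and 63.6 CPM in cKO sham. The lowest cKO sham library was less than 1 CPM above the highest cKO TAC library. In WT hearts Lipe had 36.1, 41.8, 34.8 and 39.4 CPM after TAC, against 82.4, 47.3, 49.2 and 39.8 CPM after sham, and the groups overlapped while WT sham replicate 1 stood well above all others. Log2 fold changes were -0.54 in cKO hearts (SE 0.18, edgeR adjusted p = 0.0357) and -0.52 in WT hearts (SE 0.18, edgeR adjusted p = 0.0601). The call in cKO hearts was close to the threshold, and it was lost without cKO TAC replicate 2, 3 or 4 or cKO sham replicate 3 or 4, with edgeR adjusted p-values of 0.0723, 0.0724, 0.0898, 0.123 and 0.0799. The log2 fold change in cKO hearts stayed at -0.64 to -0.43 with each library left out. In WT hearts Lipe passed without WT sham replicate 4 (log2 fold change -0.65, edgeR adjusted p = 0.0283) and in DESeq2 (adjusted p = 0.0348). Without WT sham replicate 1 the WT value was -0.26 (edgeR adjusted p = 0.206). Some 15.6% of its exon bases are shared with 4732471J01Rik on the opposite strand in a GRCm38 annotation, and with strandedness not given its counts may include reads of that gene.

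G0s2 encodes the protein that binds and inhibits adipose triglyceride lipase. It ranged over 17.6 to 31.1 CPM in cKO TAC, 27.3 to 40.5 CPM in cKO sham, 23.3 to 35.2 CPM in WT TAC and 24.6 to 45.1 CPM in WT sham, with overlap in every comparison. Its log2 fold change after TAC was -0.48 in cKO hearts (SE 0.20, edgeR adjusted p = 0.0868) and -0.28 in WT hearts (SE 0.20, edgeR adjusted p = 0.352). The value in cKO hearts passed the test when cKO TAC replicate 1, the highest of its group, was left out (log2 fold change -0.68, edgeR adjusted p = 0.0203).

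Of the enzymes of the last step of triglyceride synthesis, Dgat2 passed after TAC in cKO hearts alone and Dgat1 in neither genotype. They were not tested against each other. Dgat2, which adds the third fatty acid and prefers those newly made or newly activated in the cell, had 159, 163, 232 and 196 CPM in cKO TAC, against 471, 289.6, 348 and 459 CPM in cKO sham. In WT mice Dgat2 had 264, 346, 338 and 299 CPM after TAC, against 406, 402, 279 and 394 CPM after sham. The cKO TAC libraries were the lowest 4 of all 16, while WT TAC overlapped WT sham through sham replicate 3. Dgat2 fell 2.09-fold after TAC in cKO hearts (log2 fold change -1.06, SE 0.17, edgeR adjusted p = 0.000259), a call that held under all 17 alternatives run for it. In WT hearts the log2 fold change was -0.25 (SE 0.16, edgeR adjusted p = 0.321).

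Dgat1, the other diacylglycerol acyltransferase, which re-esterifies fatty acids that come in from outside or are released by lipolysis, showed little change. It ranged over 19.3 to 21.5 CPM in cKO TAC, 21.4 to 25.2 CPM in cKO sham, 23.7 to 28.3 CPM in WT TAC and 19.9 to 32.1 CPM in WT sham. TAC and sham overlapped in both genotypes. The log2 fold change after TAC was -0.15 in cKO hearts (95% interval -0.41 to 0.12) and 0.08 in WT hearts (95% interval -0.19 to 0.34), and the sign in cKO hearts turned when libraries were scaled by totals alone.

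Ces1d, a carboxylesterase that hydrolyses triglyceride in the liver and fat of mice, had the largest fold change of the 10 and the widest spread. It had 7.19, 20.3, 48.0 and 26.4 CPM in cKO TAC, against 124, 77.2, 114 and 142 CPM in cKO sham. WT hearts had 10.3, 46.0, 58.3 and 65.4 CPM after TAC, against 115, 107, 99.8 and 111 CPM after sham. In both genotypes every TAC library was below every sham library, and replicate 1 was far below the other TAC libraries of its group. The fall was 4.48-fold in cKO hearts (log2 fold change -2.16, SE 0.54, edgeR adjusted p = 0.0105). In WT hearts the log2 fold change was -1.26 (SE 0.52), which missed the threshold (edgeR adjusted p = 0.117) but passed in limma voom (-1.55, adjusted p = 0.0355). Ces1d lies among closely related carboxylesterase genes, and how reads that map to several of them were counted is not given. Its relative Ces1e was measured at most at 1.12 CPM and also fell, by 2.43 on the log2 scale in cKO hearts (edgeR adjusted p = 0.00782) and 1.87 in WT hearts (edgeR adjusted p = 0.0192).

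Lpl, lipoprotein lipase, is made by cardiomyocytes and works at the capillary wall, where it frees fatty acids from lipoprotein triglyceride. It had 3990.0, 3672, 4131 and 3798 CPM in cKO TAC, against 5141, 4698, 5928 and 4915 CPM in cKO sham. In WT hearts Lpl had 4088, 4649, 4670.2 and 4285 CPM after TAC, against 6376, 6629, 4755 and 6112 CPM after sham. The groups did not overlap in either genotype, with WT sham replicate 3 clearly the lowest of its group. Lpl fell by similar amounts, 1.33-fold in cKO hearts (log2 fold change -0.41, SE 0.11, edgeR adjusted p = 0.0122) and 1.35-fold in WT hearts (log2 fold change -0.43, SE 0.11, edgeR adjusted p = 0.0145). The call in cKO hearts was narrowly lost without cKO sham replicate 3 (edgeR adjusted p = 0.0502), and that in WT hearts without WT TAC replicate 1 (edgeR adjusted p = 0.0532).

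**Figure D2:**
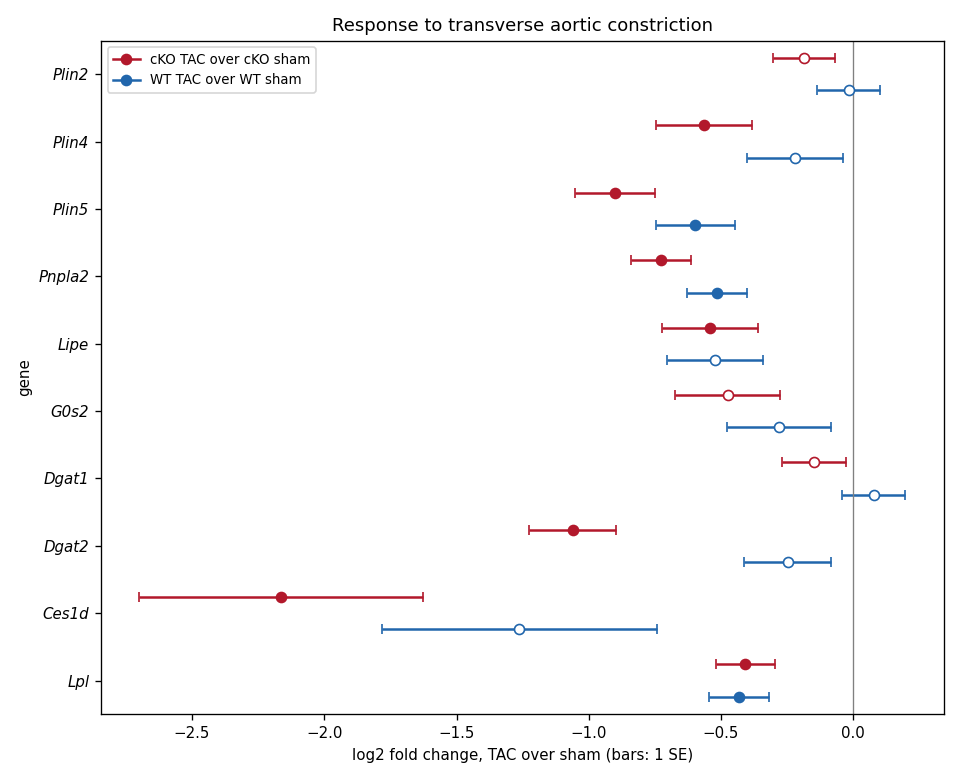
Log2 fold change after transverse aortic constriction over sham surgery (horizontal axis) for each of the 10 genes, with cKO hearts in red above WT hearts in blue; bars are 1 SE. Filled points passed an adjusted p of 0.05 and open points did not. Ces1d had the largest fold change in both genotypes, at -2.16 in cKO hearts and -1.26 in WT hearts, and Lpl and Lipe lay at nearly the same value in both.

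The scale of the libraries mattered for the smaller falls. Scaling by library totals alone raised the median log2 fold change of all tested genes by 0.19 in cKO hearts and by 0.12 in WT hearts. With it 4 of the 10 genes passed as lower in cKO hearts after TAC, and Plin4, Lipe and Lpl were lost (-0.37, -0.34 and -0.21 on the log2 scale, edgeR adjusted p = 0.140, 0.149 and 0.0723). Of all tested genes 5.77% then passed as lower and 26.4% as higher in cKO hearts, and 2.84% as lower and 14.3% as higher in WT hearts, where 3 of the 10 still passed as lower. Testing all genes without the filter on low counts left 5 of the 10 in cKO hearts, without Plin4 and Lipe (-0.57 and -0.55, edgeR adjusted p = 0.105 and 0.109).

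Between genotypes after TAC, 1 of the 10 genes passed, Dgat2, where 1.18% of all tested genes passed as lower and 0.598% as higher. With library totals, Dgat2 was again the only one of the 10 to pass, and the shares over all genes were 0.776% and 0.763%. The comparison shares its cKO TAC and WT TAC libraries with the comparisons of TAC against sham. Dgat2 averaged 188 ± 34.1 CPM in cKO TAC and 312 ± 37.9 CPM in WT TAC (SD, n = 4 each), and every cKO library was below every WT library. It was 1.66-fold lower in cKO hearts (log2 fold change -0.73, SE 0.16, edgeR adjusted p = 0.0339). This call was close to the threshold: it was lost when any of cKO TAC replicates 1, 2 and 4 or WT TAC replicates 2, 3 and 4 was left out, while the log2 fold change stayed at -0.85 to -0.67 over all 8 such fits. The adjusted p over all 17 alternatives ran over 0.00192 to 0.131.

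Plin5, Pnpla2 and Dgat1 were also lower in each cKO TAC library than in each WT TAC library but missed the threshold over all genes. With Dgat2 these were 4 of the 10 with no overlap, where 5.11% of all tested genes were lower in this way. Plin5 averaged 69.6 ± 7.80 CPM in cKO TAC and 91.4 ± 11.6 CPM in WT TAC (SD, n = 4 each; log2 fold change -0.39, edgeR adjusted p = 0.183). Pnpla2 averaged 265 ± 20.9 CPM in cKO TAC and 314 ± 17.3 CPM in WT TAC (log2 fold change -0.25, edgeR adjusted p = 0.272). Dgat1 averaged 20.6 ± 0.947 CPM in cKO TAC and 25.6 ± 1.93 CPM in WT TAC (log2 fold change -0.32, edgeR adjusted p = 0.174). The remaining 6 genes overlapped between the genotypes after TAC, with log2 fold changes that ran over -0.82 for Ces1d, -0.37 for G0s2, -0.18 for Lpl, 0.08 for Plin2, 0.12 for Lipe and 0.21 for Plin4. The cardiomyocyte markers leaned the same way as Dgat2 after TAC, with a median log2 fold change of -0.34 for cKO over WT and none of 12 past the threshold. Fibroblast markers leaned the other way, with a median of 0.76 and 1 of 8 past it as higher, and the part of either in the Dgat2 result was not tested.

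After sham surgery none of the 10 genes passed between the genotypes in the edgeR test, where 1.17% of all tested genes passed in either direction. Plin4 came closest, with 371, 290.3, 276 and 426 CPM in cKO sham, against 214, 317, 206 and 193 CPM in WT sham. WT sham replicate 2 lay inside the cKO sham range and the other WT sham libraries lay below it. The log2 fold change was 0.55 (SE 0.18, edgeR adjusted p = 0.140), and it passed as higher when WT sham replicate 2 was left out (0.74, edgeR adjusted p = 0.0403). Plin2, at 60.7 ± 12.7 CPM in cKO sham and 51.0 ± 5.32 CPM in WT sham (SD, n = 4 each), had a log2 fold change of 0.25 (edgeR adjusted p = 0.328). In the edgeR model 2 of the 10 genes had an unadjusted p under 0.05, which were Plin4 at 0.00706 and Plin2 at 0.0478, where 15% of all tested genes did, so this count is near the background. DESeq2 also called none. Dgat2, which differed after TAC, had a log2 fold change of 0.08 after sham (95% interval -0.27 to 0.44).

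**Figure D3:**
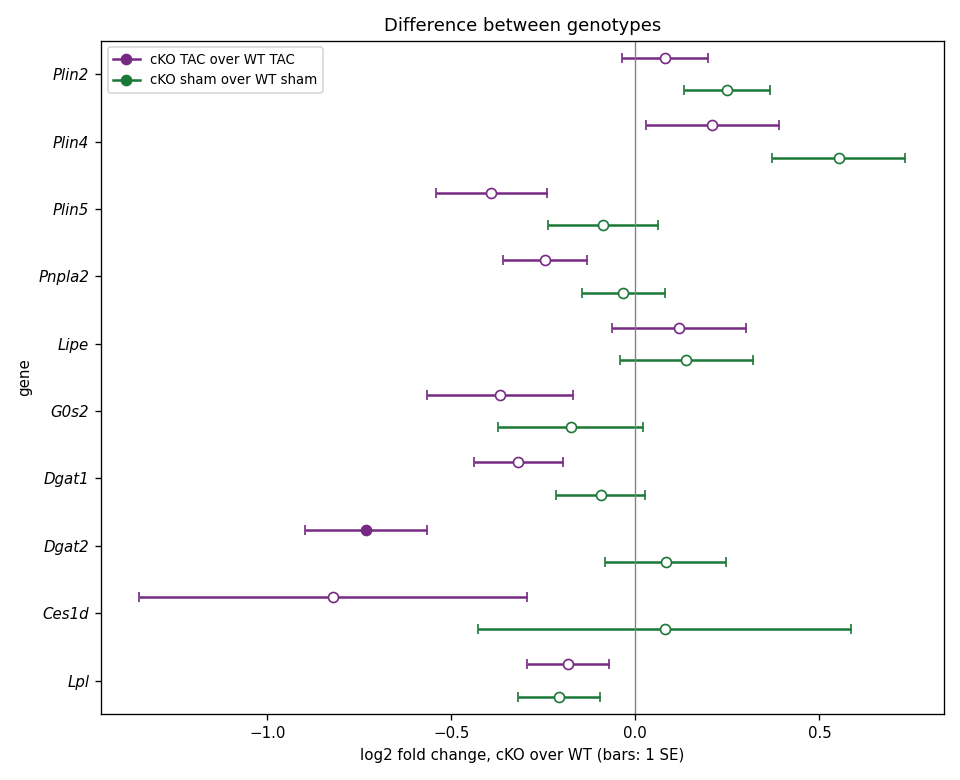
Log2 fold change of cKO over WT hearts (horizontal axis) for each of the 10 genes, after transverse aortic constriction in purple and, below it, after sham surgery in green; bars are 1 SE. The filled point passed an adjusted p of 0.05 and open points did not: only Dgat2 after constriction is filled, at -0.73, and Plin4 after sham lies at 0.55.

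In the test of whether the TAC response differed between genotypes, Dgat2 had the smallest p of the 10. Its response was -0.81 on the log2 scale in cKO minus WT (SE 0.23, 95% interval -1.32 to -0.31), with an unadjusted p of 0.00258 in edgeR and an adjusted p of 0.946, so it did not pass over all tested genes. For the other 9 genes the unadjusted p was above 0.05, and DESeq2 called none of the 10. The smallest differences were those of Lpl, at 0.02 (95% interval -0.32 to 0.37), and Lipe, at -0.02 (95% interval -0.58 to 0.54), which was -0.29 without WT sham replicate 1. The interval for Ces1d, -2.49 to 0.69, was too wide to place its difference.

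Averaged over both surgeries, cKO against WT gave none of the 10 past the threshold in edgeR, where 9.06% of all tested genes passed in either direction. Plin4 had a log2 fold change of 0.38 (edgeR adjusted p = 0.0715) and Dgat2 of -0.32 (edgeR adjusted p = 0.0897). Plin4 passed as higher in DESeq2 (0.38, adjusted p = 0.0451) and with library totals (0.45, edgeR adjusted p = 0.0449). In the edgeR model 5 of the 10 had an unadjusted p under 0.05, where 24.5% of all tested genes did. Plin5, Dgat1 and Lpl had unadjusted p-values of 0.0367, 0.0267 and 0.0241, all with lower levels in cKO, beside 0.00825 for Plin4 and 0.0121 for Dgat2.

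Levels can be set side by side between genes only per length, here as CPM per kb of exons in a GRCm38 annotation (GENCODE M21). Lpl was the most abundant of the 10 in every group, at 372 ± 19.4 CPM per kb in cKO TAC and 569.6 ± 79.8 in WT sham (SD, n = 4 each). Pnpla2 came next in level, at 87.7 ± 6.93 CPM per kb in cKO TAC and 148 ± 18.9 in WT sham. The level of Dgat2 was below that of Pnpla2, at 60.9 ± 11.1 CPM per kb in cKO TAC and 120.1 ± 19.8 in WT sham, and in WT TAC these 2 genes lay within 1 SD of each other at 101 ± 12.3 and 104 ± 5.72. In WT sham the order went on with Plin5 at 66.2 ± 16.3 CPM per kb, then Ces1d at 45.6 ± 2.79, G0s2 at 40.5 ± 9.64 and Plin4 at 40.2 ± 9.92, the last 3 of which did not differ beyond 1 SD. In cKO TAC the same level of Ces1d was 10.8 ± 7.19 CPM per kb, below Plin4 at 39.9 ± 9.62, Plin5 at 33.4 ± 3.74 and G0s2 at 25.8 ± 6.91, and within 1 SD of Plin2 at 15.2 ± 0.613. Lipe at 7.02 ± 0.900 and Dgat1 at 6.73 ± 0.310 CPM per kb closed the order in cKO TAC and lay within 1 SD of each other, as they did in WT sham at 9.29 ± 3.21 and 7.96 ± 1.76.

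Beyond the group means, the 10 genes were compared library by library, with each group's mean removed from log2 CPM. Over the 16 libraries the 45 pairs had a median Pearson r of 0.12, 10 pairs were above 0.5 and 15 were negative. The closest pair was Plin5 and Lipe (r = 0.85), then Plin5 and Pnpla2 (r = 0.72), Lipe and Dgat1 (r = 0.68) and Dgat2 and Ces1d (r = 0.62). WT sham replicate 1, which held the highest Plin5, Lipe and Dgat1 of all libraries, also had the highest erythrocyte marker sum, 1248 CPM, and weighs on these values. The most opposed pair was Plin2 and Dgat2 (r = -0.51). G0s2 and Plin4 had no partner above 0.5 among the 10. These are descriptions: genes measured in the same libraries share their depth, scaling and cell makeup.

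**Figure D4:**
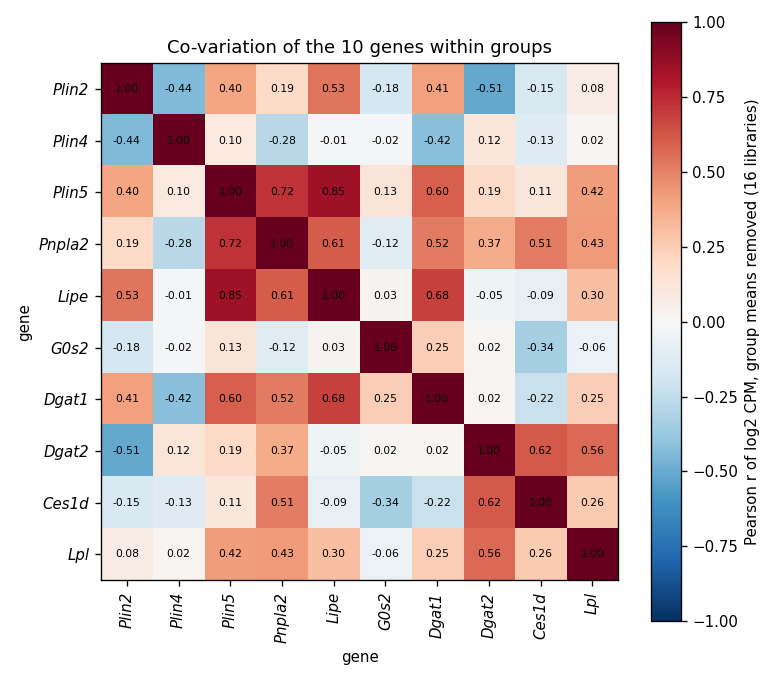
Pearson r between the log2 CPM of each pair of the 10 genes over 16 libraries after the mean of each group was removed (colour from -1 in blue to 1 in red, value in each cell). Plin5, Pnpla2, Lipe and Dgat1 form a block with values of 0.52 to 0.85, and Plin2 and Dgat2 lie at -0.51.

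The same measure set the 10 genes against the marker sums. Dgat2 had r = -0.82 with the fibroblast sum, -0.74 with the macrophage sum and 0.68 with the cardiomyocyte sum within groups. Ces1d had r = -0.67 with the fibroblast sum and 0.75 with the cardiomyocyte sum. Replicate 1 of cKO TAC, with the least Ces1d and Dgat2 of its group, had the highest fibroblast sum of all libraries, 8106 CPM, and the lowest cardiomyocyte sum, 51149.5 CPM. Pnpla2 had r = -0.68 with the fibroblast sum and 0.66 with the cardiomyocyte sum, and Lpl had -0.62 with the fibroblast sum and -0.67 with the atrial sum. In cKO TAC the atrial sum was nearly all Nppa, at 1933 of 1938 CPM in replicate 1, where Myl7 was at 0. There the sum follows Nppa and cannot stand for atrial tissue. With the erythrocyte sum, Dgat1 had r = 0.78, Lipe 0.68 and Plin5 0.64. The smooth muscle sum had r = 0.66 with Pnpla2, as high as the cardiomyocyte sum. It had 0.60 with Plin5, 0.59 with Lipe and 0.56 with Ces1d, and the other genes ran from 0.02 (Plin4) to 0.34 (Dgat2). Plin2 went with the macrophage sum (r = 0.71) and G0s2 with the endothelial sum (r = 0.76). With the adipocyte sum no gene had an r above 0.19, and Lpl had the lowest at -0.41. In every cKO library most of that sum was Trarg1, such as 4.54 of 5.17 CPM in cKO TAC replicate 1. The values of r with it therefore cannot show how much fat tissue contributed.

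For genes of the set, the single gene most like each within groups was sought among tested genes outside the set. Over 16 libraries it was Ivd (r = 0.98) for Dgat2, Borcs6 (r = 0.94) for Dgat1, Mlycd (r = 0.94) for Pnpla2 and Pfkm (r = 0.94) for Ces1d. It was Zkscan14 (r = 0.93) for Lpl, Mtmr10 (r = 0.89) for Plin4, Ano5 (r = 0.88) for Plin2, Wdr83os (r = 0.88) for Plin5 and Rreb1 (r = 0.86) for G0s2. Each was the highest value over the tested genes with a symbol, after pseudogenes, Gm-numbered genes and Rik genes were skipped. These values describe the libraries.

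The wider pathway gave a frame for the 10. Of 77 other genes in 4 lists of the droplet, of lipolysis, of glycerolipid synthesis and of the lipoprotein lipase system, 76 were matched and 60 passed the filter on low counts. Of these 60, 16 fell and 11 rose after TAC in cKO hearts, with a median log2 fold change of -0.11, and 7 fell and 8 rose in WT hearts, with a median of -0.04. As shares of the 60 these are 26.7% and 18.3% in cKO hearts, beside 12.4% and 14.2% of all tested genes, and 11.7% and 13.3% in WT hearts, beside 6.14% and 9.7%. In cKO TAC against WT TAC 3 were lower (5%) and none higher, beside 1.18% and 0.598% of all tested genes. In cKO sham against WT sham 2 were higher (3.33%) and none lower, beside 1.17% of all tested genes in either direction. Averaged over surgeries 9 were lower and 2 higher in cKO, beside 9.06% of all tested genes in either direction. None of the 60 passed the test of a different TAC response in edgeR. The calls of single genes among the 60 were not followed through the alternatives, as those of the 10 were. The counts of each list below are to be read beside the same shares of all tested genes. In cKO hearts the shares lower and higher were 45.5% and 0% for the droplet list and 18.2% and 9.09% for lipolysis. They were 28.6% and 23.8% for glycerolipid synthesis and 17.6% and 29.4% for the lipase system. In WT hearts the droplet list had 9.09% and 0%, and lipolysis 18.2% and 18.2%. Glycerolipid synthesis had 9.52% and 9.52%, and the lipase system 11.8% and 23.5%. Those of lipolysis in cKO hearts and of glycerolipid synthesis in WT hearts lay near the shares of all tested genes.

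Among 11 other droplet genes, 5 fell and none rose after TAC in cKO hearts, and 1 fell in WT hearts. Fitm2, a protein of the endoplasmic reticulum needed for droplets to bud, had the clearest fall of these, at 128 ± 10.4 CPM in cKO TAC and 246 ± 19.3 in cKO sham (SD, n = 4 each; log2 fold change -0.94, edgeR adjusted p = 5.14e-05), and at 170.0 ± 23.7 CPM in WT TAC and 295 ± 50.6 in WT sham (log2 fold change -0.80, edgeR adjusted p = 0.000307). Fitm1, its counterpart in muscle and heart, had a log2 fold change of -0.92 after TAC in cKO hearts (edgeR adjusted p = 0.00636) and -0.59 in WT hearts (edgeR adjusted p = 0.0748). Averaged over surgeries both were lower in cKO, Fitm1 by 0.68 and Fitm2 by 0.34 below WT on the log2 scale (log2 fold change -0.68 and -0.34, edgeR adjusted p = 0.0143 and 0.0188). Plin3, a perilipin that moves between cytosol and droplets, had 234, 183, 235 and 223 CPM in cKO sham, against 163, 167, 155 and 155 CPM in WT sham, with no overlap (log2 fold change 0.45, edgeR adjusted p = 0.0272). It fell after TAC in cKO hearts (log2 fold change -0.52, edgeR adjusted p = 0.000918) and lay at 0.00 in WT hearts. Bscl2, or seipin, which shapes new droplets, and Hilpda, an inhibitor of adipose triglyceride lipase, passed no test, with log2 fold changes after TAC in cKO hearts of -0.07 and -0.15.

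Of 11 other lipolysis genes, 2 fell and 1 rose after TAC in cKO hearts, and 2 fell and 2 rose in WT hearts. Abhd5, the coactivator of adipose triglyceride lipase, had a log2 fold change after TAC of -0.21 in cKO hearts and -0.08 in WT hearts, where Pnpla2 fell in both (edgeR adjusted p = 0.130 and 0.651 for Abhd5). Mgll, which ends lipolysis at the monoglyceride, lay at -0.22 in cKO hearts and 0.14 in WT hearts and passed neither test. Lipa, the acid lipase of the lysosome, was higher in cKO averaged over surgeries (log2 fold change 0.33, edgeR adjusted p = 0.0275), at 48.3 ± 8.68 CPM in cKO TAC and 37.9 ± 5.11 in WT TAC, and 40.2 ± 5.09 in cKO sham and 32.3 ± 2.47 in WT sham. In the same average 5 of 8 macrophage markers were higher in cKO and 0 lower, with a median log2 fold change of 0.43. Of 8 fibroblast markers 4 were higher and 0 lower, with a median of 0.57. The part of these marker shifts in the Lipa result was not tested. Ces2e, another carboxylesterase, was lower in cKO TAC, at 2.10 ± 1.02 CPM, than in WT TAC, at 4.97 ± 0.782 CPM (log2 fold change -1.23, edgeR adjusted p = 0.0487).

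Of 21 other genes of glycerolipid synthesis, 6 fell and 5 rose after TAC in cKO hearts, and 2 fell and 2 rose in WT hearts. Lpin1, the phosphatidate phosphatase that makes the diglyceride used by both Dgat enzymes, was lower in cKO TAC, at 114, 133, 122 and 115 CPM, against 152, 187, 186 and 148 CPM in WT TAC (log2 fold change -0.47, edgeR adjusted p = 0.0401). Acsl1, the main enzyme that activates long-chain fatty acids in the heart, was lower in the same comparison, at 346, 423, 487 and 417 CPM, against 558, 714, 669.8 and 598 CPM in WT TAC (log2 fold change -0.60, edgeR adjusted p = 0.0156). Neither gene overlapped between the genotypes after TAC, as Dgat2 did not. Whether the calls of Lpin1 and Acsl1 hold with each library left out was not tested, and that of Dgat2 did not always hold. Averaged over surgeries Acsl1, Acsl3, Agpat2, Agpat3 and Lpin1 were lower in cKO, with log2 fold changes of -0.47, -0.45, -0.39, -0.33 and -0.26. Gpd1, which makes glycerol 3-phosphate, was higher in cKO sham than in WT sham (log2 fold change 0.43, edgeR adjusted p = 0.0429) and was the 1 gene of this list that was higher in cKO averaged over surgeries (log2 fold change 0.30, edgeR adjusted p = 0.0151). The acyltransferases of the first step, Gpam, Gpat3 and Gpat4, passed no test, with log2 fold changes after TAC in cKO hearts of -0.19, -0.26 and -0.12.

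Of 17 other genes of the lipase system and fatty acid entry, 3 fell and 5 rose after TAC in cKO hearts, and 2 fell and 4 rose in WT hearts. Vldlr, a receptor that holds lipoproteins at the cell, fell beside Lpl, with a log2 fold change of -0.67 in cKO hearts and -0.38 in WT hearts (edgeR adjusted p = 0.000246 and 0.0190). Cd36, the fatty acid transporter of the cardiomyocyte and capillary, fell too, with -0.45 in cKO hearts and -0.36 in WT hearts (edgeR adjusted p = 0.00544 and 0.0309). Gpihbp1, the endothelial anchor of lipoprotein lipase, lay at -0.15 and -0.08 and passed neither test. Angptl4, an inhibitor of lipoprotein lipase, spread over 18.5 to 28.5 CPM in cKO TAC, 4.30 to 36.5 CPM in cKO sham, 6.76 to 24.0 CPM in WT TAC and 3.40 to 13.6 CPM in WT sham and passed no test. Fabp3, the fatty acid binding protein of heart muscle, was lower in cKO averaged over surgeries (log2 fold change -0.35, edgeR adjusted p = 0.0282).

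**Figure D5:**
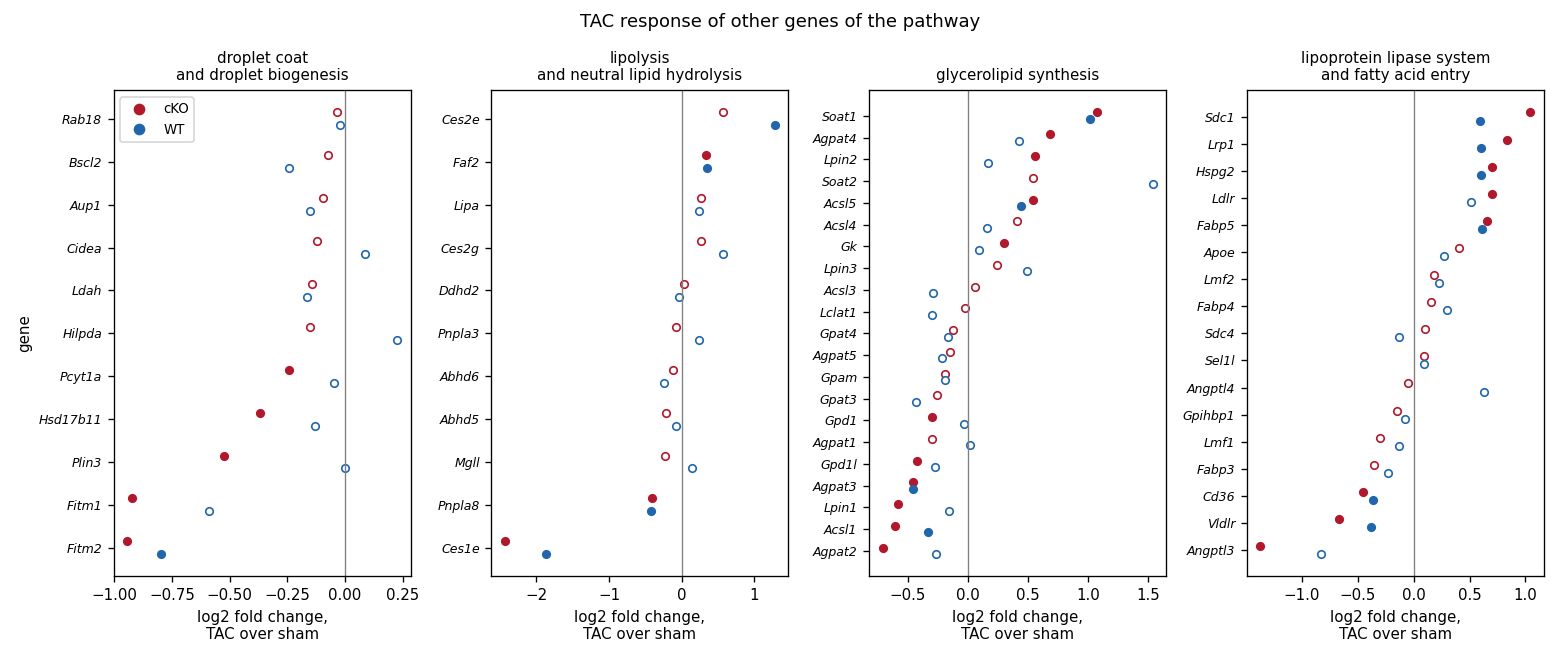
Log2 fold change after transverse aortic constriction over sham surgery (horizontal axis) for the 60 other genes of the pathway that were tested, in 4 panels by list; cKO hearts are red and drawn just above WT hearts in blue, filled where the adjusted p was under 0.05. Fitm2 lies at -0.94 in cKO hearts and -0.80 in WT hearts, while Abhd5 lies at -0.21 and -0.08.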

How the data were processed

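RNA was measured in 16 left ventricular libraries, 4 per group. The values the authors deposited are raw counts, whole numbers in 1 table with a row per Ensembl gene. Per the submitters' processing notes, the tools were featureCounts 2.0.6, HISAT2 2.0.5, SAMtools 1.21, fastp 0.22.0 and FastQC, with GRCm39 as the build; whether counting used strand, which annotation it used and how it treated multiply mapped reads is not given in the sources used here. Symbols for 51880 of 57186 IDs, and exon lengths, came from a GRCm38 annotation, and promoter windows from RefSeq (GRCm38.p6), so no GRCm39 coordinates are given.

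Counts were fitted in R 4.3.3 with edgeR 4.0.16 (filterByExpr, TMM, robust quasi-likelihood, 1 mean per group, all 16 libraries, 12 residual degrees of freedom). P-values were adjusted by Benjamini-Hochberg over the 15206 tested genes of each comparison, at 0.05. Standard errors follow from the fold change and its F value, and 95% intervals use 12 degrees of freedom and are not adjusted. Log2 CPM used a prior count of 2. The biological coefficient of variation was 16.5%. The fit was tested on simulated data.

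The 10 genes, the pathway lists and the marker lists were chosen with earlier results of these data known. The text names all 10, 16 pathway genes whatever they did, any other list gene past the threshold in a genotype comparison, Tfeb, and for each of the 10 its most similar gene by within-group r, which for Lipe is not reported here; Ces1e, Myh7, Adipoq and Ucp1 were named after their values were seen.

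Alternatives were scaling by size factors or by library totals alone, testing all genes without the filter, the Wald test of DESeq2 1.42.0, voom in limma 3.58.1, a fit restricted to the groups compared, a block for the replicate number, removal of mitochondrially encoded genes, and each library left out in turn. Leaving out 2 libraries with fat and atrial markers was chosen after seeing the data. No pair of replicates agreed within sampling noise (chi-square per gene at least 9.02).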

Additional observations from a re-analysis of the deposited data

Results flagged for a closer look

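In each of 40 checks, 1 for each of the 10 genes in each group, the gap between the highest or lowest library and its neighbour was set against the whole range of the 4 libraries. In 5 of 40 the gap took a larger part of the range than the 95% critical value of Dixon's test allows, which chance gives in about 1 in 20 groups. Plin5 was high in WT sham replicate 1, at 189 CPM. Plin4 was high in WT sham replicate 2, at 317 CPM. Between cKO sham and WT sham, Plin4 passed with this library left out (edgeR adjusted p = 0.0403) and not with it (0.140). Dgat2 was low in WT sham replicate 3, at 279 CPM, which is 1 of the 2 libraries with the most adipocyte and atrial markers. G0s2 was high in cKO sham replicate 1, at 40.5 CPM. Plin2 was high in WT TAC replicate 2, at 55.1 CPM, in a group whose libraries otherwise lay within 1 CPM of each other.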

How the results depend on the processing

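Of the 10 genes, the number past the threshold after TAC, all as lower, was 7 in cKO hearts, 4 with library totals, 5 with no filter and 5 to 8 with each library left out; in WT hearts it was 3, and 2 to 4 with each left out. For cKO TAC against WT TAC it was 1 (Dgat2, lower), 0 with a replicate block and 0 to 1 with each left out. The replicate numbers did not pair the libraries (r above 0.1 in 4 of 24 same-numbered pairs, range -0.16 to 0.23); with the block Dgat2 had an edgeR adjusted p of 0.0502. For cKO sham against WT sham it was 0, and 0 to 1 with each left out (Plin4, higher). Averaged over surgeries it was 0, but 1 as higher with library totals and 1 as higher in DESeq2 (Plin4 in both), 1 as lower without the 2 libraries with fat and atrial markers (Dgat2), and 0 to 2 with each left out, in either direction.

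Over all tested genes, cKO TAC against WT TAC gave 271, but 438 with no filter, 795 in DESeq2, 152 with the compared groups alone, 165 without those 2 libraries and 13 (without WT TAC replicate 2) to 912 (without cKO TAC replicate 3) with each left out. For cKO sham against WT sham it was 178, 534 in DESeq2 and 59 to 211 with each left out. The difference in TAC response gave 0, 1 in DESeq2 and 2 without those 2 libraries. For cKO TAC against cKO sham it was 4034 (2154 higher and 1880 lower), and 4890 with library totals (4013 higher and 877 lower). It was 3423 with no filter. Without cKO TAC replicate 1 it was lowest, at 2720, where 8 genes of the set passed. Without cKO TAC replicate 3 it was highest, at 4297, where 5 passed. The same 5 was reached without cKO TAC replicate 4 or cKO sham replicate 3 or 4, at 3220, 2937 and 3145. WT TAC against WT sham gave 2409, and 1234 to 2456 with each left out. Averaged over surgeries it was 1377 (640 higher and 737 lower), against 819 and 515 with library totals. With each left out that count was 819 to 1845.

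Signs turned only for values that did not pass. With library totals Plin2 after TAC was at 0.00604 in cKO and 0.108 in WT hearts, Dgat1 in cKO hearts at 0.048, and the Lipe difference in response at 0.0498. Without the 2 libraries that Lipe value was 0.0469 and Dgat2 in cKO sham against WT sham was -0.0322. With each library left out the log2 ranges that crossed 0 were, for cKO sham against WT sham, -0.17 to 0.0987 (Plin5), -0.13 to 0.0587 (Pnpla2), -0.18 to 0.0698 (Dgat1), -0.0321 to 0.20 (Dgat2) and -0.0402 to 0.23 (Ces1d); for WT TAC against WT sham, -0.0632 to 0.0531 (Plin2) and -0.00955 to 0.24 (Dgat1); and for the difference in response, -0.29 to 0.11 (Lipe) and -0.0297 to 0.12 (Lpl). The causes were not tested.

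The lowest count of any of the 10 genes in a library was 114, for Ces1d, and precision was limited by 4 libraries per group.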

Other observations

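While 7 of the 10 genes fell after TAC in cKO hearts and 3 in WT hearts, some other genes of lipid handling rose. The genes below were named after their values were seen. Of the 60 other pathway genes 11 rose (18.3%) and 16 fell in cKO hearts, and 8 rose (13.3%) and 7 fell in WT hearts. Of all tested genes 14.2% and 9.7% rose, so the shares that rose were not far from the background. Soat1, which esterifies cholesterol for storage in droplets, was higher after TAC in both genotypes (log2 fold change 1.08 in cKO hearts and 1.02 in WT hearts, edgeR adjusted p = 0.000835 and 0.00285). Acsl5, a relative of Acsl1 that activates fatty acids, rose where Acsl1 fell (log2 fold change 0.55 in cKO hearts and 0.44 in WT hearts, edgeR adjusted p = 0.000885 and 0.00709). Fabp5, a fatty acid binding protein found in macrophages and endothelium as well as in other cells, rose by 0.66 in cKO hearts and 0.61 in WT hearts on the log2 scale (edgeR adjusted p = 0.00923 and 0.0225). The lipoprotein receptor Lrp1 and the proteoglycans Hspg2 and Sdc1, to which lipoprotein lipase can bind, rose in both genotypes, Sdc1 by 1.04 in cKO hearts and 0.59 in WT hearts (edgeR adjusted p = 0.000605 and 0.0376). The fibroblast and macrophage marker sums averaged higher after TAC in both genotypes, and their part in these rises was not tested.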
